A study of Mus musculus with 28 samples.

Results

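The 81 genes described here encode nuclear subunits of the oxidative phosphorylation machinery. They were defined by mouse symbols that begin with Nduf and a, b, c, s or v, or with Uqcr, Cox4 to Cox8 or Atp5. They also had to stand in both deposited log2 tables. The assembly factors of the Ndufaf family and Ndufa4l2 were left out. With these left out, 95 symbols of the count table match the names, and 14 of them are not among the 81 genes. The 81 genes, of 53647 gene IDs in the count table, divide into 37 of complex I, 8 of complex III, 19 of complex IV and 17 of complex V. Of these, 78 carried the same symbol in all tables, while Ndufb1, Atp5pb and Atp5md were joined through a synonym. The symbols are those of the deposited tables.

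RNA was sequenced from 2 sorted cell populations of mouse brain carrying brain metastases (BrM) of a lung cancer line, Sv2T3-BrM1, or of a breast cancer line, PyMT-BrM3, and of non-tumor brain. The metastases followed intracardiac injection. The genotype given for all mice was PDGFRb-CreERT2; Rosa-tdTomato, with 2 mg of tamoxifen per day for 5 days, so that the red reporter depends on Cre driven by Pdgfrb and marks cells in which that gene was active at the time of tamoxifen. CD45+, CD11B+ and EPCAM+ cells were gated out, and CD31+ cells (endothelial) or tdTomato+ cells (mural, called PDGFRb here) were collected. The PDGFRb sort gave 4 lung BrM, 4 breast BrM and 5 non-tumor libraries, and the CD31 sort gave 5, 5 and 5. The 28 libraries name 15 mice or pools, 13 of which gave both sorts. A pair of lung labels names 2 mouse numbers each, and each was kept as 1 replicate. Age and sex are not given in the labels.

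Oxidative phosphorylation passes electrons from NADH and succinate along complexes I to IV to oxygen, and the proton gradient that complexes I, III and IV build drives ATP synthesis by complex V. Complexes I, III, IV and V are mosaics of subunits from the nucleus and from mitochondrial DNA, so the nuclear genes named here give only a part of each complex. Brain endothelial cells are known for a strong use of glycolysis and for their content of mitochondria, and pericytes for tissue-specific isoforms of complex IV.

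Nuclear respiratory factor 1 (NRF1) and ETS-family factors such as GABP are known regulators of many subunit genes, and their textbook motifs were looked up in the RefSeq promoters of build GRCm38.p6. The window was the 250 bases before the annotated start, both strands were read, and 67 of the 81 genes matched an entry. The NRF1-type motif GCGCNNGCGC stood in 12 of the 67 promoters, 17.9%, against 4.98% of 32851 promoters. The ETS-type motif CCGGAAG stood in 10 of the 67, 14.9%, against 6.91%. These 2 motifs do not contain each other. A match describes letters only and says nothing of binding. The 4 promoters shown were picked after values were seen. Atp5e, Cox6a1 and Ndufa8 were higher in BrM endothelial cells, and Ndufa7 was the one subunit gene called lower in breast BrM endothelial cells. They run 5′ to 3′ on the strand of the gene, at chr2:174464102-174464351 (minus strand) for Atp5e, chr5:115348959-115349208 (minus) for Cox6a1, chr2:36049339-36049588 (minus) for Ndufa8 and chr17:33824322-33824571 (plus) for Ndufa7. Capitals mark motif matches on either strand.
Atp5e: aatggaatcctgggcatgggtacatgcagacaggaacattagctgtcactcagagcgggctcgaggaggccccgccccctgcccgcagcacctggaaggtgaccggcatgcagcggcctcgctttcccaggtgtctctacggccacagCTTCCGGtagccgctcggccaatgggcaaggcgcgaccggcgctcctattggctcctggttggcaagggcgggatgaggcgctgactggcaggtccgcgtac
Cox6a1: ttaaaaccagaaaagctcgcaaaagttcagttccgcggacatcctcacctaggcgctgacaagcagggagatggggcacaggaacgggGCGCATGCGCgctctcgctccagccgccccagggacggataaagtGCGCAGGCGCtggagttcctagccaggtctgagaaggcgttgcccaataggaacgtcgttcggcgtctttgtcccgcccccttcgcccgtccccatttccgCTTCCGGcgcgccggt
Ndufa8: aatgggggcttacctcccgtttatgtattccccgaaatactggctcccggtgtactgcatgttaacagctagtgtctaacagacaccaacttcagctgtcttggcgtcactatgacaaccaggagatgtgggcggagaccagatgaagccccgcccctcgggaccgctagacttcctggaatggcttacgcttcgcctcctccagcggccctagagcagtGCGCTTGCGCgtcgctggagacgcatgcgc
Ndufa7: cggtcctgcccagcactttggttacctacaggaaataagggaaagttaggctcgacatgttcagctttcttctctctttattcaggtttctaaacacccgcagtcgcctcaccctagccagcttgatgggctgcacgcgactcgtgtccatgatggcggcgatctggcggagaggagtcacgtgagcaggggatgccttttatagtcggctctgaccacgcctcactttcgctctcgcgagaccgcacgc
The Cox6a1 promoter held 2 NRF1-type and 1 ETS-type matches, the Atp5e promoter 1 ETS-type match and the Ndufa8 promoter 1 NRF1-type match. No match stood in the Ndufa7 window, nor in those of Atp5g1, Atp5md, Cox7c, Cox8a, Ndufa4 and Ndufs8, which were also higher in BrM endothelial cells. Of the matched genes tested in CD31 lung BrM, 15 of 49 called higher and 5 of 16 not called held a match, and nothing is drawn from a match about direction.

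Library totals ranged between 7.11 M and 23.9 M counts, 9174 to 22752 genes were detected, and 3 counts corresponded to 0.125 to 0.422 CPM (counts scaled to library size). Endothelial markers summed to 5920 to 15700 CPM in the CD31 libraries. Mural markers summed to 6390 to 37400 CPM in the PDGFRb breast and non-tumor libraries, but to 282 to 9020 CPM in the PDGFRb lung libraries, 3 of which had Pdgfrb itself at 36.0 to 42.2 CPM against 856 to 1470 CPM in PDGFRb non-tumor libraries. Summed epithelial markers (8 genes, including Epcam and Krt8) reached 6130 to 9970 CPM in PDGFRb lung and 1040 to 4160 CPM in PDGFRb breast libraries, against 5.18 to 74.9 CPM in PDGFRb non-tumor libraries. They were lower in the CD31 sort, at 96.3 to 2240 CPM in lung, 152 to 2960 CPM in breast and 0.175 to 8.46 CPM in non-tumor libraries. The PDGFRb breast library of mouse 51950 stood apart, with 7.11 M counts and 9174 genes detected against 17004 to 22752 in the other 12 PDGFRb libraries. Mouse 54135 has a conflict in both of its libraries, whose titles give one sort and whose cell type entries give the other. They were grouped by title, by which its CD31 library held 13900 CPM of endothelial and 19.2 CPM of mural markers, and its PDGFRb library 709 CPM of endothelial and 14400 CPM of mural markers. These markers match the titles and go against the cell type entries, so results by those entries show only what a swap would do.

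In endothelial cells, subunit genes of all 4 complexes stood higher in both kinds of metastasis than in non-tumor brain. The 81 genes together took 1.42% to 2.01% of the counts in CD31 lung libraries, 1.29% to 1.75% in CD31 breast libraries and 0.901% to 1.18% in CD31 non-tumor libraries, so neither kind of BrM overlapped with non-tumor brain. In bulk RNA of sorted cells, fewer cells of a type and less RNA per cell cannot be told apart. The mean log2(CPM + 1) over complex V genes was 8.01 ± 0.25 in lung, 7.85 ± 0.23 in breast and 7.19 ± 0.19 in non-tumor CD31 libraries (SD, n = 5 each). Over complex I genes it was 7.14 ± 0.21 in lung, 6.98 ± 0.24 in breast and 6.66 ± 0.18 in non-tumor CD31 libraries (SD, n = 5 each). These levels are descriptions with no test.

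**Figure D1:**
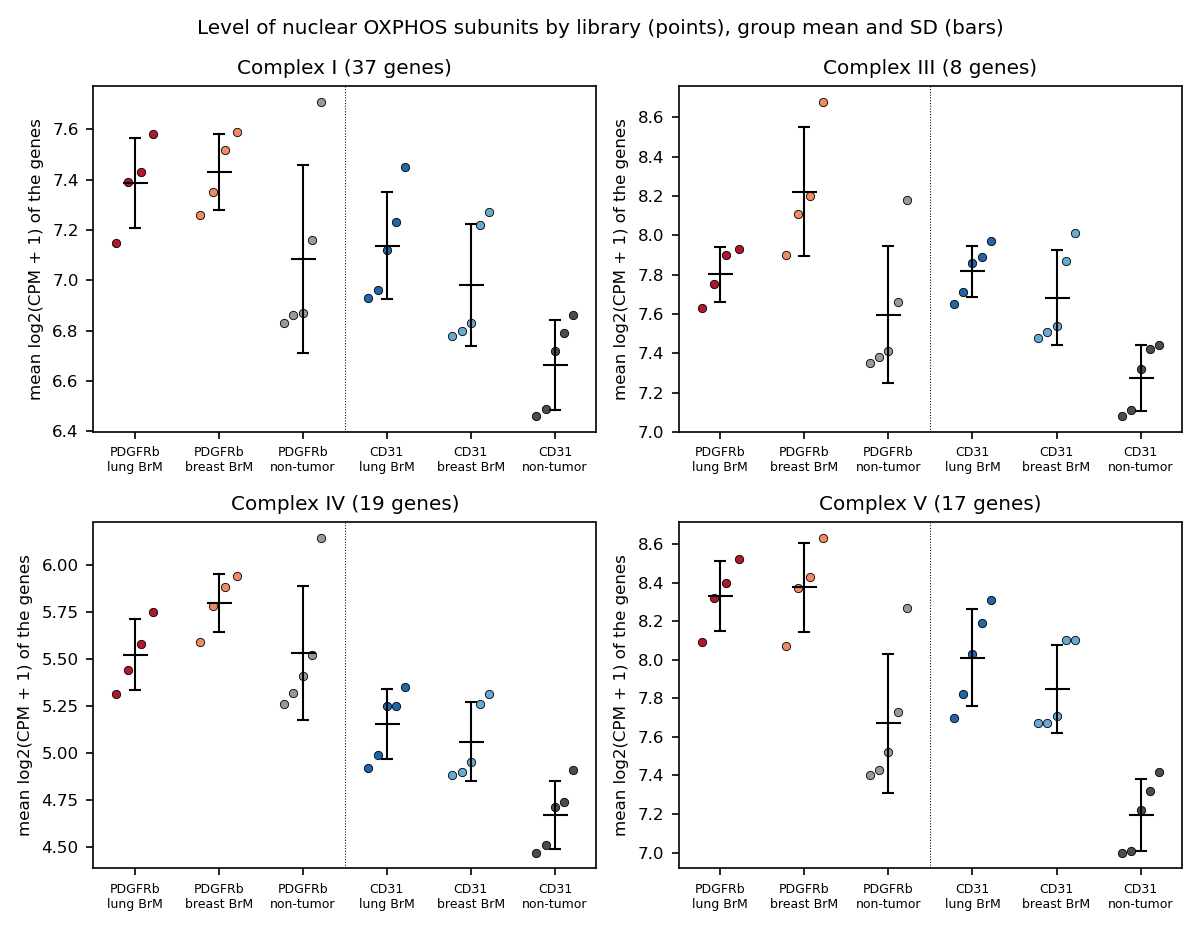
Mean log2(CPM + 1) of the genes of each complex (y axis) in each of the 28 libraries (points), with group mean and SD (bars), for PDGFRb lung, breast and non-tumor and CD31 lung, breast and non-tumor libraries (x axis). For complex V the CD31 BrM libraries lie at 7.67 to 8.31, above the CD31 non-tumor libraries at 7 to 7.42, while 1 PDGFRb non-tumor library reaches 8.27.

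A total of 76 of the 81 genes passed the filter on low counts in the CD31 sort. With edgeR's quasi-likelihood test and a Benjamini-Hochberg adjusted p under 0.05 over all 14876 genes tested, 56 of the 76 were higher and 0 lower in CD31 lung BrM than in non-tumor brain, where 20.4% of all genes tested were higher and 14.5% lower. None was lower at an unadjusted p under 0.05, by DESeq2 or by limma-voom either. In CD31 breast BrM 41 were higher and 1, Ndufa7, was lower, where 18.6% of all genes were higher and 11.4% lower. The median log2 fold change of the 76 was 0.71 in lung and 0.54 in breast BrM, beside -0.003 and 0.041 over all genes tested. The 5 untested genes, Cox4i2, Cox6a2, Cox7b2, Cox8b and Cox8c, are complex IV isoforms, none of which exceeded 0.699 CPM in a CD31 library. Both comparisons share the 5 non-tumor libraries.

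By complex, lung BrM endothelial cells had 24 of 37 complex I, 5 of 8 complex III, 12 of 14 complex IV and 15 of 17 complex V genes higher, with median log2 fold changes of 0.53, 0.55, 0.91 and 0.99. Breast BrM endothelial cells had 14 of 37, 4 of 8, 11 of 14 and 12 of 17 higher, with medians of 0.45, 0.45, 0.68 and 0.82. Within complex I, the 7 core subunits that carry the flavin and the iron-sulfur clusters had 3 higher in lung and 1 in breast BrM. The 30 accessory subunits, which surround that core, had 21 higher in lung and 13 higher and 1 lower in breast BrM. Within complex V, all 5 small subunits of the membrane part and all 3 genes of the rotating c-ring were called higher in both kinds of BrM. The 5 genes of the catalytic F1 head had 5 higher in lung and 2, Atp5d and Atp5e, higher in breast BrM. Differences between complexes were not tested.

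**Figure D2:**
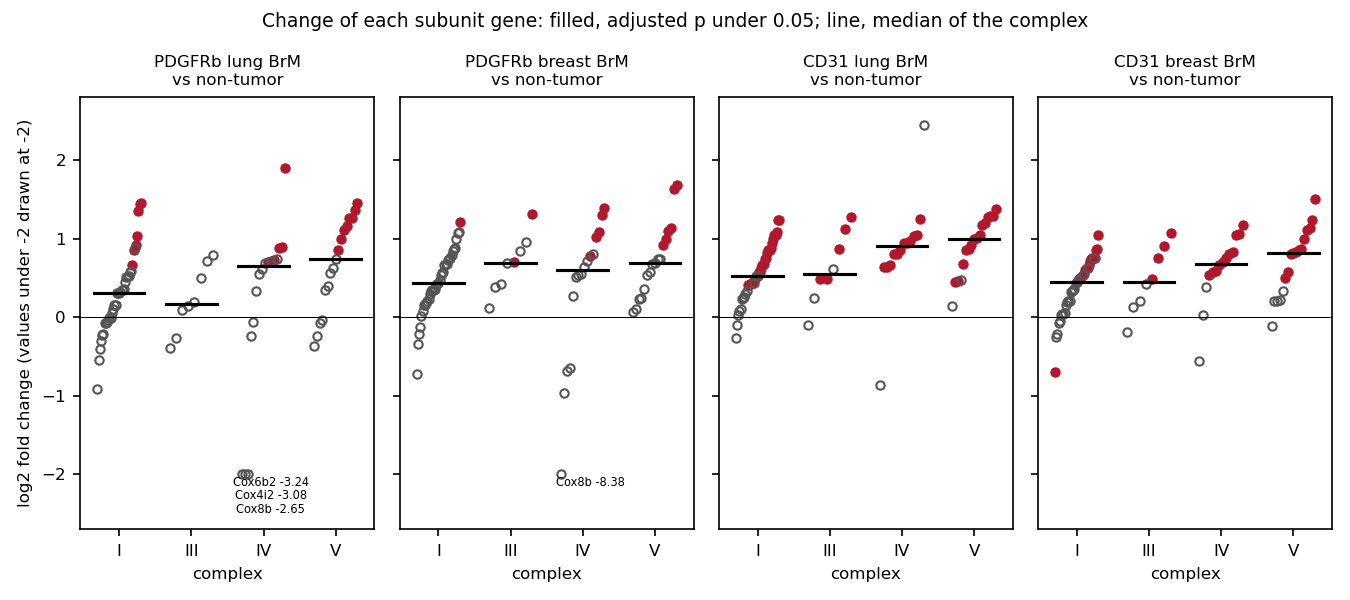
Log2 fold change (y axis) of each tested subunit gene, by complex (x axis), for lung and breast BrM against non-tumor brain in the PDGFRb and CD31 sorts. Filled points passed an adjusted p of 0.05 and lines are medians, such as 0.99 for complex V in CD31 lung BrM, while values under -2 are drawn at -2. Such points come from genes with low counts or, for Cox4i2 in PDGFRb lung BrM, from a group in which only mouse 51435 stood high.

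Of the 5 genes with the largest called rises, 4 belonged to complex V in each kind of BrM (Atp5g1, Atp5e, Atp5md and Atp5mpl). Atp5g1, 1 of 3 genes for the same c-ring protein, had 253, 216, 164, 194 and 206 CPM in CD31 lung, 234, 215, 277, 289 and 196 CPM in CD31 breast, and 73.4, 98.1, 77.6, 106 and 85.1 CPM in CD31 non-tumor libraries. Every BrM library was above every non-tumor library. The log2 fold change was 1.29 ± 0.17 in lung (SE; adjusted p 2.3e-05, edgeR) and 1.5 ± 0.17 in breast BrM (SE; adjusted p 5.6e-06, edgeR). Its share of the FPKM of the 3 c-ring genes was 23.5% to 32.8% in lung, 27.3% to 46.1% in breast and 24.2% to 26.7% in non-tumor CD31 libraries. Reads of the c-ring genes may be split among near copies, and Atp5g1 and Atp5g2 had fractional counts in at least 30% of libraries, so the division among them is uncertain.

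Atp5e, the epsilon subunit of the central stalk, had 158, 253, 80.1, 112 and 148 CPM in CD31 lung, 95.7, 186, 180, 111 and 109 CPM in breast, and 54.8, 67.7, 52.8, 81.0 and 66.0 CPM in non-tumor libraries. Only the lowest lung library fell within the non-tumor range. Atp5md and Atp5mpl, small membrane subunits of the synthase, changed by 1.38 ± 0.24 and 1.28 ± 0.25 on the log2 scale in lung and by 1.24 ± 0.24 and 1.14 ± 0.25 in breast BrM (SE; adjusted p 0.00034, 0.001, 0.0009 and 0.0026, edgeR). Atp5b, the catalytic beta subunit and the complex V gene with the highest mean FPKM, 1640, stood at 1110 to 1330 CPM in lung, 920 to 1160 CPM in breast and 856 to 978 CPM in non-tumor CD31 libraries. It rose in lung BrM by 0.45 ± 0.11 (SE; adjusted p 0.0059, edgeR) and gave 0.20 ± 0.11 in breast BrM (SE; adjusted p 0.2, edgeR).

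Among the electron transfer complexes, Uqcrq, a small membrane subunit of complex III, had 270, 406, 200, 208 and 330 CPM in CD31 lung, 195, 357, 313, 173 and 218 CPM in breast, and 106, 135, 109, 142 and 118 CPM in non-tumor libraries. Neither BrM group overlapped with non-tumor brain, and the log2 fold changes were 1.28 ± 0.23 in lung and 1.07 ± 0.23 in breast BrM (SE; adjusted p 0.00051 and 0.0022, edgeR). Cox7c, a small complex IV subunit with no isoform, stood at 111 to 188 CPM in lung, 125 to 223 CPM in breast and 59.9 to 97.5 CPM in non-tumor CD31 libraries. Cox8a, a small subunit with the highest mean FPKM of complex IV, 1540, stood at 237 to 425 CPM in lung, 282 to 423 CPM in breast and 136 to 208 CPM in non-tumor CD31 libraries. Both rose in both kinds of BrM, by 0.95 to 1.17 on the log2 scale (SE 0.19 each; the largest adjusted p was 0.0011, edgeR). Ndufa4, named for complex I but now counted with complex IV, rose by 0.67 ± 0.17 in lung and 0.57 ± 0.17 in breast BrM (SE; adjusted p 0.0068 and 0.02, edgeR).

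In complex I, the core subunit Ndufs8, which binds a pair of iron-sulfur clusters, had 260, 302, 221, 221 and 270 CPM in CD31 lung, 186, 256, 263, 161 and 207 CPM in breast, and 110, 145, 119, 154 and 142 CPM in non-tumor libraries. It rose by 0.99 ± 0.16 in lung and 0.71 ± 0.16 in breast BrM (SE; adjusted p 0.00019 and 0.0031, edgeR). The accessory subunit Ndufa8, with the NRF1-type match shown above, rose by 0.95 ± 0.15 and 0.62 ± 0.15 (SE; adjusted p 0.00017 and 0.0054, edgeR). Ndufa7, an accessory subunit and the complex I gene with the highest mean FPKM, 1180, had 293, 374, 218, 223 and 257 CPM in CD31 lung, 146, 278, 214, 151 and 133 CPM in breast, and 280, 319, 230, 381 and 323 CPM in non-tumor libraries. One breast library, at 278 CPM, lay within the non-tumor range and the other 4 lay below it. The log2 fold change was -0.70 ± 0.22 in breast (SE; adjusted p 0.023, edgeR) and -0.10 ± 0.22 in lung BrM (SE; adjusted p 0.75, edgeR). Without breast BrM mouse 51950, 53072 or 53142, or non-tumor mouse 56727, 0 genes were called lower in breast BrM. Ndufs1, the large iron-sulfur subunit with the lowest mean FPKM of complex I, 46, stood at 75.2 to 89.1 CPM in 4 CD31 lung libraries and 21.2 CPM in 1, at 55.9 to 104 CPM in breast and 78.1 to 97.7 CPM in non-tumor libraries, and did not pass the test in either BrM.

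**Figure D3:**
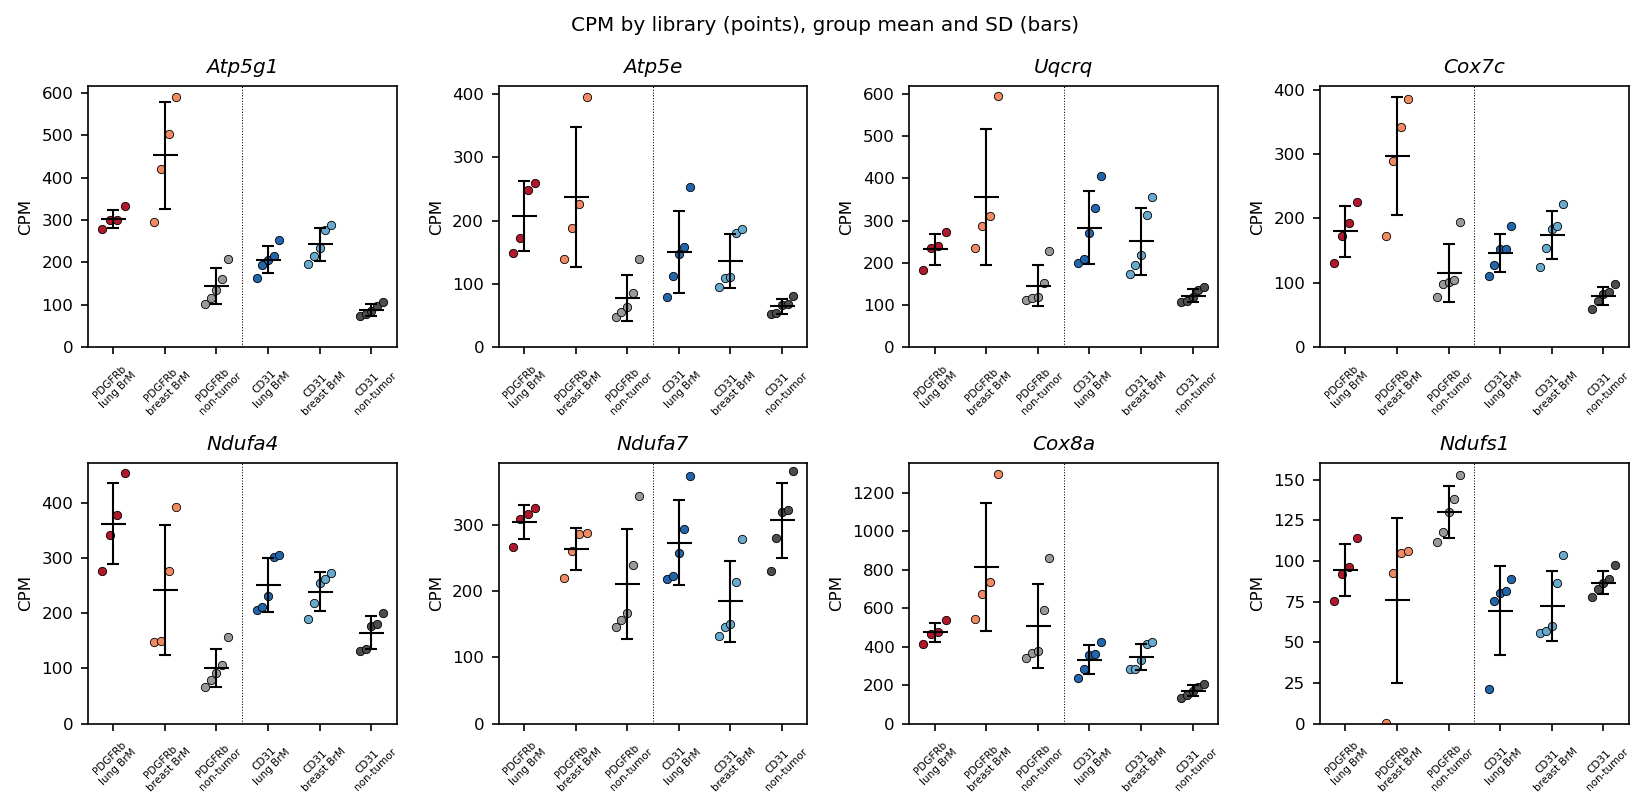
CPM (y axis) of 8 subunit genes in each library (points), with group mean and SD (bars), for PDGFRb lung, breast and non-tumor and CD31 lung, breast and non-tumor libraries (x axis). In CD31 cells Atp5g1 separates both BrM groups, at 164 to 289 CPM, from non-tumor libraries at 73.4 to 106 CPM, and 1 PDGFRb breast library has Ndufs1 at 0.166 CPM.

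Of the 76 genes tested in the CD31 sort, 18 had under 1000 exon bases and 31 had 1000 to under 2000, and short genes as a whole had positive median fold changes in BrM. Among genes with under 1000 exon bases, the median log2 fold change in CD31 lung BrM was 0.75 for the 18 subunit genes and 0.64 for all 683 genes tested, and in CD31 breast BrM it was 0.64 for both. Of those 18 genes, 12 were called higher in lung and 11 in breast BrM, beside 26.6% and 22.7% of all genes of that length. From 1000 to under 2000 bases the subunit genes had medians of 0.86 in lung and 0.59 in breast BrM, against 0.35 and 0.30 for all genes. From 2000 bases on they had 0.49 and 0.33, against -0.09 and -0.03. In the PDGFRb sort the 20 subunit genes under 1000 bases had medians of 0.16 in lung and 0.72 in breast BrM, against 0.52 and 0.27 for all genes of that length. The part that length had in the rises was not tested.

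**Figure D4:**
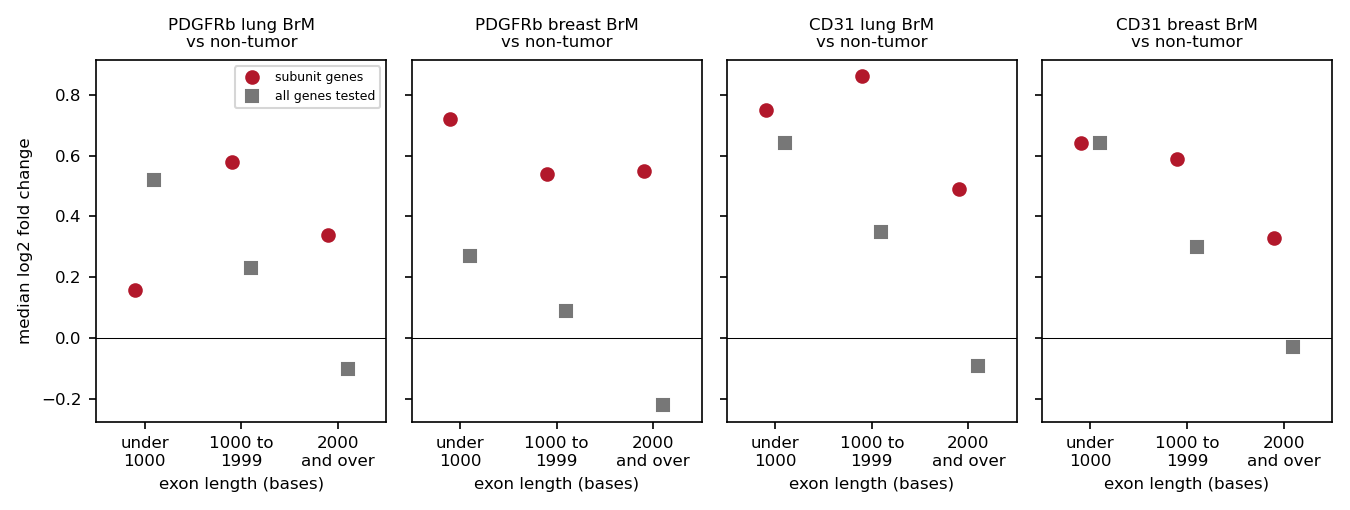
Median log2 fold change (y axis) of the subunit genes (circles) and of all genes tested (squares) by exon length in bases (x axis), for BrM against non-tumor brain in the PDGFRb and CD31 sorts. In CD31 breast BrM both medians are 0.64 under 1000 bases, and from 2000 bases on the subunit genes stand at 0.33 and all genes at -0.03.

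The CD31 rises stood beside other differences between the libraries. Summed proliferation genes (16) were at 626 to 1170 CPM in lung, 670 to 1240 CPM in breast and 162 to 185 CPM in non-tumor CD31 libraries, and epithelial markers differed as given above. Summed endothelial markers (8) were lower in BrM without overlap, at 8770 to 12800 CPM in lung, 5920 to 12800 CPM in breast and 13900 to 15700 CPM in non-tumor CD31 libraries. The 8 genes did not move as a set, as 1 was called higher and 2 lower in each kind of BrM. Their median log2 fold change was -0.04 in lung and -0.21 in breast BrM. The part of these lists in the result was not tested, but 4 CD31 BrM libraries with over 1000 CPM of epithelial markers could be left out. Without them 40 subunit genes were higher in lung BrM, with a median of 0.55, and 46 in breast BrM, with a median of 0.67. The number higher in breast BrM was 27 without breast mouse 52599, 25 without non-tumor mouse 53680 and 26 without non-tumor mouse 54135. The column headers carry dates, and with the date as a covariate 5 were higher in lung and 30 in breast BrM. Only lung mice 54957 and 56195-56520 share a date with non-tumor libraries, so the lung estimate with the date rests on them. The fall in lung calls therefore cannot be read as an effect of the date. That fit called 1458 of all 14876 genes in lung and 2291 in breast BrM, and the medians of the subunit genes were 0.52 and 0.68. Within a date the median log2 difference was 0.40 in lung (2 against 2 libraries) and 0.44 and 0.81 in breast BrM (2 against 1 and 3 against 1). With mouse 54135 assigned by its cell type label, 39 were higher in lung and 15 in breast BrM, where 3000 and 2390 of all 15017 genes were called. That label goes against the markers of its libraries.

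Between the kinds of metastasis, no subunit gene passed the test in the CD31 sort. Of the 76 genes, 0 were called in either direction in lung against breast BrM by edgeR, where 2.13% of all genes tested were called, 10 had an unadjusted p under 0.05, and DESeq2 called 5 higher in lung. The median log2 fold change was 0.19, beside -0.027 over all genes, and it turned to -0.25 with the date as a covariate. No date holds libraries of both kinds of BrM, so that fit joins them only through non-tumor libraries. It called 0 of all 14876 genes and cannot separate the date from the kind of BrM. A p over the threshold does not show equal levels.

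The genes around these subunits did not all move with them in endothelial cells. For scale, 20.4% of all genes tested were higher and 14.5% lower in CD31 lung BrM, and 18.6% and 11.4% in CD31 breast BrM. Of 13 subunits from mitochondrial DNA, 2 rose (mt-Nd3 by 1.63 ± 0.56 and mt-Co3 by 1.21 ± 0.45 on the log2 scale) and 2 fell (mt-Nd2, -1.03 ± 0.31, and mt-Nd4, -1.01 ± 0.21) in CD31 lung BrM (SE; adjusted p 0.032, 0.046, 0.016 and 0.0012, edgeR). In CD31 breast BrM 0 of the 13 passed by edgeR, with 1 at an unadjusted p under 0.05. Cycs, cytochrome c, which carries electrons between complexes III and IV, rose in both, by 0.87 ± 0.14 in lung and 0.92 ± 0.14 in breast BrM (SE; adjusted p 0.00016 and 0.00011, edgeR). Of the 4 genes of complex II, the succinate dehydrogenase, Sdhb and Sdhd rose in lung BrM, by 0.53 ± 0.15 and 0.48 ± 0.13 (SE; adjusted p 0.0097 and 0.0079, edgeR). Sdha went the other way without a call, at 190 ± 80 CPM in CD31 lung and 316 ± 35.3 CPM in CD31 non-tumor libraries (SD, n = 5 each). In CD31 breast BrM 0 of the 4 were called. Of 40 tested assembly factors, 1 rose and 2 fell in lung and 5 fell in breast BrM, among them Ndufaf7, a methyltransferase for complex I assembly, at -1.31 ± 0.21 in lung and -1.74 ± 0.21 in breast BrM (SE; adjusted p 0.00014 and 1.1e-05, edgeR). Of 18 genes of mitochondrial protein import, 13 rose in lung and 9 in breast BrM.

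In the PDGFRb sort the same direction prevailed with fewer calls. The lung libraries of mice 54957, 55169-70 and 56195-56520 held little mural RNA, with mural markers at 282 to 487 CPM. Non-tumor libraries of this sort had 14400 to 37400 CPM. Epithelial markers were at 7960 to 9970 CPM in those lung libraries. The part of this cell content in the PDGFRb lung results was not tested. The 81 genes took 1.81% to 2.2% of counts in PDGFRb lung, 1.83% to 2.34% in breast and 1.5% to 2.33% in non-tumor libraries, where mouse 54132 was the highest non-tumor library. Of 78 genes that passed the filter, 20 were higher and 0 lower in lung BrM, where 9.91% of all 17028 genes tested were higher and 7.58% lower (edgeR's quasi-likelihood test). In breast BrM 14 were higher and 0 lower, where 6.3% of all genes were higher and 2.69% lower. At an unadjusted p under 0.05, 3 genes were lower in lung and 1 in breast BrM. DESeq2 called 1 lower in each, and limma-voom called 3 lower in lung and 1 in breast BrM. The median log2 fold change was 0.38 in lung and 0.56 in breast BrM, beside -0.027 and -0.156 over all genes. By complex, lung BrM had 7 of 37 complex I, 0 of 8 complex III, 5 of 16 complex IV and 8 of 17 complex V genes higher, and breast BrM had 1, 2, 5 and 6. The 7 core subunits of complex I had median log2 fold changes of -0.07 in lung and 0.08 in breast BrM, with 0 called by this test.

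Of the 5 largest called rises, 2 belonged to complex V in each kind of BrM (Atp5e and Atp5mpl in lung, Atp5e and Atp5g1 in breast BrM). Atp5g1 had 299, 332, 300 and 278 CPM in PDGFRb lung, 590, 296, 419 and 503 CPM in breast, and 135, 208, 160, 101 and 116 CPM in non-tumor libraries. No BrM library overlapped with non-tumor brain, and the log2 fold change was 1.11 ± 0.24 in lung and 1.68 ± 0.25 in breast BrM (SE; adjusted p 0.0075 and 0.0013, edgeR). Atp5e had 172, 260, 249 and 149 CPM in lung, 395, 140, 188 and 226 CPM in breast, and 84.9, 139, 63.4, 47.4 and 55.6 CPM in non-tumor libraries. Non-tumor mouse 54132 came within 1 CPM of the lowest breast library, and the log2 fold changes were 1.46 ± 0.37 in lung and 1.63 ± 0.37 in breast BrM (SE; adjusted p 0.015 in both, edgeR). Atp5pb, a peripheral stalk subunit, had 705, 785, 567 and 663 CPM in lung, 268, 341, 465 and 369 CPM in breast, and 268, 412, 280, 319 and 294 CPM in non-tumor libraries. Only the lung libraries stood apart, and its log2 fold change was 1.16 ± 0.20 in lung BrM (SE; adjusted p 0.0019, edgeR).

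Ndufa4 showed the largest of the rises called in PDGFRb lung BrM. It had 276, 453, 341 and 377 CPM in lung, 150, 148, 277 and 392 CPM in breast, and 92.0, 157, 107, 66.8 and 79.8 CPM in non-tumor libraries. All lung libraries lay above non-tumor brain, while 2 of 4 breast libraries lay within the non-tumor range. The log2 fold change was 1.90 ± 0.34 in lung and 1.3 ± 0.33 in breast BrM (SE; adjusted p 0.0021 and 0.028, edgeR). The call was lost in 1 of 23 alternatives in lung and in 11 of 22 in breast BrM. In complex I, the accessory subunits Ndufa2 and Ndufb5 rose in lung BrM by 1.45 ± 0.31 and 1.44 ± 0.33 (SE; adjusted p 0.0069 and 0.0094, edgeR). Uqcrq and Cox7c rose in breast BrM, by 1.31 ± 0.29 and 1.39 ± 0.31 (SE; adjusted p 0.014 and 0.013, edgeR).

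These PDGFRb counts rested on few libraries. The number higher in lung BrM was 13 without lung mouse 51435, 11 without 54957, 10 without 55169-70, and 13 without non-tumor mouse 53680, 54135, 56727 or 56740. The number higher in breast BrM was 6 without breast mouse 52865, 4 without breast mouse 53072 or non-tumor mouse 54135, 56727 or 56740, 5 without 53680 and 26 without 54132. Genes were also called lower without single libraries, 2 without lung mouse 51435 and 1 without 55169-70 in lung BrM, and 1 without mouse 51950 in breast BrM. Without mouse 51950, the breast library with few genes detected, 20 were higher in breast BrM, with log2 fold changes of 1.52 for Atp5g1, 1.27 for Atp5e and 0.95 for Uqcrq. With the date as a covariate 5 were higher in lung and 0 in breast BrM, where 578 and 115 of all 17028 genes were called, and the medians of the subunit genes were 0.79 and 0.71. The lung estimate with the date rests on mice 54957 and 56195-56520, the only lung mice that share a date with non-tumor libraries. Both of these lung libraries are low in Pdgfrb. Summed proliferation genes were at 1030 to 1310 CPM in lung, 706 to 1180 CPM in breast and 148 to 812 CPM in non-tumor PDGFRb libraries, and the part of these and of the epithelial markers given above in the result was not tested.

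Against breast BrM, PDGFRb lung BrM had 1 of 78 genes higher and 0 lower, where 3.08% of all genes were higher and 2.39% lower. The lung libraries low in mural markers enter this comparison too, and their part was not tested. The gene was Atp5pb, at 0.92 ± 0.22 (SE; adjusted p 0.025, edgeR), and the call was absent without breast mouse 52599, lung mouse 54957 or lung mouse 56195-56520. Without lung mouse 51435, 3 genes were lower, without breast mouse 51950, 2, and without breast mouse 52599, 1. At an unadjusted p under 0.05, 4 were higher and 14 lower, and DESeq2 called 3 higher and 2 lower. Among the genes around the subunits, Uqcc2, an assembly factor of complex III, rose by 1.60 ± 0.40 in lung and 1.68 ± 0.40 in breast BrM (SE; adjusted p 0.014 and 0.018, edgeR). Of the 18 import genes, 7 rose in lung and 2 in breast BrM, where 9.91% and 6.3% of all genes were higher.

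Mural and endothelial cells of non-tumor brain differed in both the level and the isoforms of these subunits. In PDGFRb against CD31 non-tumor libraries, 30 of 78 genes were higher and 1, Ndufa4, was lower, where 17.4% of all 18548 genes tested were higher and 10.5% lower (edgeR's quasi-likelihood test over all 28 libraries). The median log2 fold change was 0.47, beside 0.103 over all genes. With the mouse as a block, 19 were higher and 0 lower. The number higher was 18 without either library of mouse 54132 and 19 without those of mouse 54135. With mouse 54135 assigned by its cell type label, which its markers go against, 0 of all 18548 genes were called. The PDGFRb non-tumor libraries also held more summed markers of other cells than the CD31 non-tumor libraries, at 133 to 1580 against 6.53 to 30.2 CPM for astrocytes (5 genes), 565 to 1660 against 1.87 to 4.71 CPM for fibroblasts (6 genes) and 2.47 to 722 against 2.24 to 3.44 CPM for neurons (7 genes). Slc17a7 was at 0 in both groups, and Gad2, Lum and Slc22a6 were at 0 in the CD31 group. The part of these markers in the difference was not tested. By complex, 15 of 37 complex I, 2 of 8 complex III, 5 of 16 complex IV and 8 of 17 complex V genes were higher.

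The largest difference between the sorts among these genes was that of Cox4i2, the hypoxia-responsive isoform of the regulatory subunit IV that is known in lung and in pericytes. It had 73.9, 1.88, 0.331 and 1.58 CPM in PDGFRb lung, 147, 112, 95.8 and 49.6 CPM in PDGFRb breast, and 169, 246, 78.6, 173 and 140 CPM in PDGFRb non-tumor libraries. In the CD31 sort it did not exceed 0.408 CPM, close to what 3 counts give. The log2 fold change of PDGFRb over CD31 in non-tumor brain was 9.24 ± 1.20 (SE; adjusted p 1.2e-06, edgeR). Of the FPKM of Cox4i1 and Cox4i2 together, Cox4i2 took 0.0391% to 9.31% (median 0.198%) in PDGFRb lung, 5.74% to 13.8% in breast and 14.6% to 30.7% in non-tumor libraries. The ubiquitous isoform Cox4i1 rose in PDGFRb BrM by 0.70 ± 0.22 in lung and 0.78 ± 0.22 in breast (SE; adjusted p 0.041 and 0.04, edgeR). The call was lost in 19 of 23 alternatives in lung and in 17 of 22 in breast BrM. Cox4i2 itself gave -3.08 ± 1.15 in lung and -0.65 ± 1.05 in breast BrM (SE; adjusted p 0.082 and 0.76, edgeR). The only lung library with more than 2 CPM of Cox4i2 was that of mouse 51435, also the only one with mural markers at 9020 CPM. The part of the mural share in the Cox4i2 levels was not tested.

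**Figure D5:**
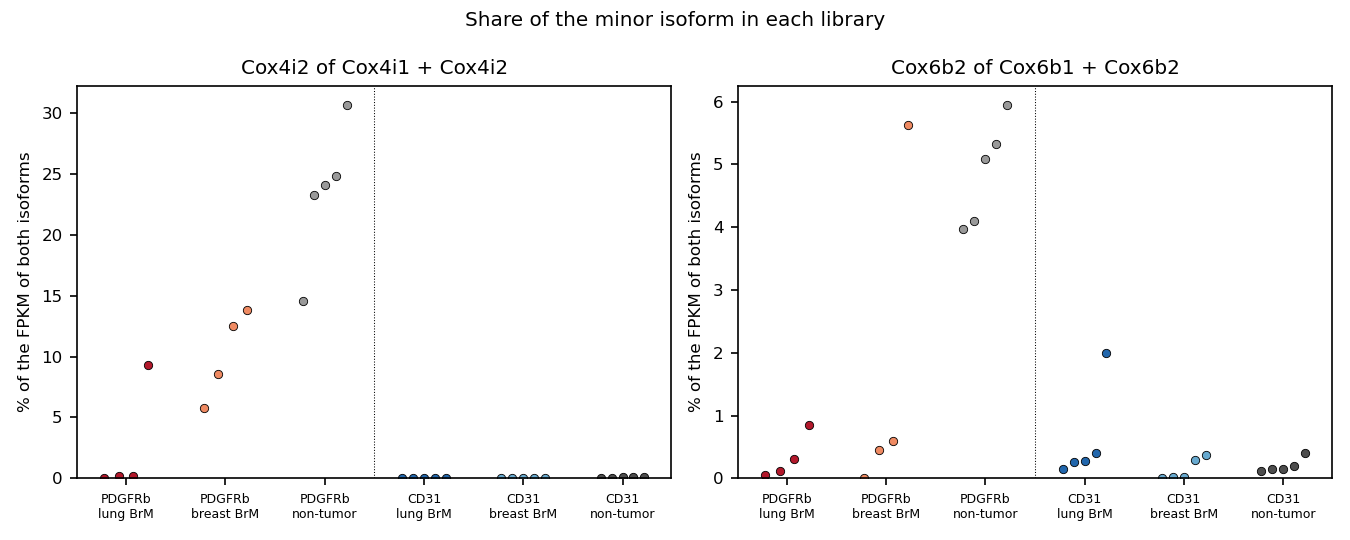
Share in percent (y axis) of Cox4i2 in the FPKM of Cox4i1 and Cox4i2, and of Cox6b2 in the FPKM of Cox6b1 and Cox6b2, in each library (points) of the PDGFRb lung, breast and non-tumor and CD31 lung, breast and non-tumor groups (x axis). Cox4i2 takes 14.6% to 30.7% in PDGFRb non-tumor libraries and at most 0.0879% in any CD31 library.

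Other minor isoforms were rare. Cox6b2, known as the testis isoform of subunit VIb, had 2.77, 0.151, 0.441 and 0.996 CPM in PDGFRb lung, 0, 16.6, 2.31 and 1.71 CPM in PDGFRb breast, and 8.59, 19.9, 7.79, 7.91 and 8.19 CPM in PDGFRb non-tumor libraries, against 0.187 to 0.583 CPM in CD31 non-tumor libraries. It was higher in PDGFRb than in CD31 cells of non-tumor brain by 5.02 ± 1.21 on the log2 scale (SE; adjusted p 0.0022, edgeR). Cox8b, a muscle isoform of subunit VIII in mice, had 0.316 to 5.5 CPM in PDGFRb non-tumor libraries and 0 in all 4 PDGFRb breast libraries, and Cox6a2, Cox7b2 and Cox8c passed the filter in no comparison. Ndufa4l2, the hypoxia-induced relative of Ndufa4 that is not among the 81 genes, averaged 47.9 ± 86.1 CPM in PDGFRb lung (SD, n = 4), 287 ± 148 CPM in PDGFRb breast (SD, n = 4) and 285 ± 112 CPM in PDGFRb non-tumor libraries (SD, n = 5). No CD31 library exceeded 0.869 CPM. Ndufa4 ran the other way, at 92.0, 157, 107, 66.8 and 79.8 CPM in PDGFRb against 135, 181, 132, 200 and 176 CPM in CD31 non-tumor libraries, with overlap and a log2 fold change of -0.71 ± 0.25 (SE; adjusted p 0.033, edgeR). Without non-tumor mouse 53680, 56727 or 56740, 0 genes were called lower, and without 54132 3 were. The call of Ndufa4 was lost in 10 of 14 alternatives, among them RLE and upper-quartile scaling of the libraries and DESeq2.

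Among the constitutive subunits, Cox8a had 590, 860, 369, 341 and 380 CPM in PDGFRb against 151, 189, 136, 208 and 169 CPM in CD31 non-tumor libraries, without overlap. Its log2 fold change was 1.57 ± 0.25 (SE; adjusted p 2e-05, edgeR). Ndufs7, a core subunit next to the quinone site, had 397, 538, 247, 270 and 271 CPM against 139, 179, 145, 165 and 158 CPM, and gave 1.13 ± 0.28 (SE; adjusted p 0.0026, edgeR). Ndufa13, an accessory subunit, had 280, 404, 175, 147 and 183 CPM against 87.1, 116, 101, 122 and 114 CPM, and gave 1.14 ± 0.25 (SE; adjusted p 0.00086, edgeR). In all 3 genes the PDGFRb libraries lay above the CD31 libraries.

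The effect of metastasis was also compared between the sorts. For breast BrM, 0 of 78 genes had an effect that differed between PDGFRb and CD31 cells by edgeR, where 5.93% of all genes did, 4 had an unadjusted p under 0.05, and DESeq2 and limma-voom called 1 each. Without mouse 52599 1 gene was called, and without mouse 54132 2 were. For lung BrM, 1 gene had a more positive effect in the PDGFRb sort and 7 a more negative one, where 3.77% and 6.35% of all genes did. In that sort, 3 lung libraries held 282 to 487 CPM of mural markers, against 14400 to 37400 CPM in non-tumor libraries. Summed epithelial markers were at 6130 to 9970 CPM in the lung libraries of that sort. The part of cell content in these effects was not tested. Ndufa4 was the 1 with the more positive effect, by 1.24 ± 0.36 (SE; adjusted p 0.027, edgeR). The 7 were Ndufa8, Ndufs8, Ndufab1, Cox6b2, Atp5b, Atp5d and Atp5g3. With the mouse as a block, 0 and 1 were called. The 7 became 4 without lung mouse 51697, 2 without non-tumor mouse 54132 and 0 without lung mouse 55169-70. The call of Ndufa4 was absent without lung mouse 54957, 55169-70 or 56195-56520 or non-tumor mouse 53680, 56727 or 56740, and 2 genes had a more positive effect without lung mouse 51435.

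The called genes were few, near the share over all genes, and are not read as a pattern of the subunits. Atp5b was among those with a more negative effect in the PDGFRb sort. It had 1460, 1030, 963 and 1040 CPM in PDGFRb lung against 1740, 1550, 1200, 1530 and 1460 CPM in PDGFRb non-tumor libraries, while in the CD31 sort lung libraries stood above non-tumor ones, as given above. The difference of the effects was -0.80 ± 0.22 on the log2 scale (SE; adjusted p 0.016, edgeR). Ndufa8 had 130, 127, 94.9 and 83.3 CPM in PDGFRb lung against 126, 166, 105, 96.1 and 96.5 CPM in PDGFRb non-tumor libraries, and 250, 309, 230, 278 and 243 CPM in CD31 lung against 120, 150, 138, 144 and 154 CPM in CD31 non-tumor libraries. The PDGFRb groups overlapped and the CD31 groups did not, and the effects differed by -1.01 ± 0.27 (SE; adjusted p 0.017, edgeR).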

How the data were processed

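RNA of CD31 and PDGFRb sorts was read in 28 libraries of 6 groups, made with a low-input SMART-Seq kit and Nextera XT per the labels' protocols, which keep no strand. Build mm10 and the tools RSEM 1.3.3, STAR 2.7.9a, limma 3.50.3 and edgeR 3.36.0 are credited to the submitters' processing notes. The expected counts deposited by the authors are estimated reads per gene without scaling. The deposited log2 values are the authors' log2 of scaled counts, 1 table per sort, and the deposited FPKM values are scaled to each gene's length and each library's size. Members, lists and tests were chosen with earlier results of these data known.

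Groups come from the sample titles. Expected counts were rounded, genes kept by filterByExpr, libraries scaled by TMM, and edgeR 4.0.16's quasi-likelihood test (R 4.3.3) fitted over all genes, for the 3 groups of each sort or, between sorts, for all 6. Calls are at a Benjamini-Hochberg adjusted p under 0.05. Within a sort, p-values measure the spread between mice or pools. Between sorts and in the interactions, both libraries of a mouse were fitted as independent, and the mouse as a block was an alternative. Limits from counts cover counting error only, as the reads carry no molecular barcodes. Levels are CPM on TMM-scaled totals, and FPKM compares genes. Named genes are the isoform pairs, the highest and lowest mean FPKM per complex, and the 5 largest rises and falls called per comparison. Other genes of the 81 and the 4 promoters, taken among those the reference table holds, were chosen after their values were seen. Of the gene IDs, 52093 matched a symbol.

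The mouse number names the same animal in both sorts per the labels. Deviations from group means correlated at -0.12 to 0.33 over the 13 mice with both sorts, and 4 correlated best with their own partner. Members with fractional counts in at least 30% of libraries are uncertain, since reads shared with near copies may be split: Atp5g1, Atp5g2, Atp5l, Cox6c, Ndufa12, Ndufa13, Ndufb4, Ndufb6, Ndufs1, Ndufs3 and Uqcrc2. In data simulated for CD31 lung BrM against non-tumor (14473 genes) the test recovered 20.4%, 46%, 83.7% and 97.8% of genes changed by log2 1, 2, 4 and 6, and for PDGFRb lung BrM against non-tumor (16316 genes) 0%, 14.3%, 54.5% and 67.3%. The simulation changed a small set of genes drawn at random from all levels, with all others unchanged. Many more genes changed in the real data, so these rates do not give the recovery for the subunit genes. Alternatives were other scalings and filters, DESeq2 1.42.0, limma 3.58.1 (voom, and trend on the deposited log2 and FPKM values), mouse 54135 by its cell type label, left-out libraries, the date, and the mouse as a block.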

Additional observations from a re-analysis of the deposited data

Results flagged for a closer look

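Of 194 pairs of a named gene and a group of 4 or 5 libraries, 11 held 1 library far from the others, and about 1 in 20 such groups would do so by chance. The PDGFRb breast library of mouse 51950 had 489 CPM of Atp5g2 and 0.166 CPM of Ndufs1. The PDGFRb breast library of mouse 52599 had Cox6a1 at 396 CPM, below the others. PDGFRb non-tumor mouse 54132 stood high for Atp5mpl (140 CPM), Cox6b2 (19.9 CPM) and Cox7b (133 CPM), and mouse 56727 had Cox6a2 at 0.751 CPM. The PDGFRb lung library 55169-70 was the one with Cox8b, at 1.38 CPM. In the CD31 sort, lung library 56195-56520 had Cox6b2 at 5.09 CPM and Ndufs1 at 21.2 CPM, and breast library 53072 had Uqcrc2 at 158 CPM.

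The effect of lung BrM differed between the PDGFRb and CD31 sorts for 7 named genes (edgeR interaction, PDGFRb minus CD31). The difference on the log2 scale was -1.01 for Ndufa8, -0.98 for Ndufs8, -5.62 for Cox6b2, 1.24 for Ndufa4, -0.80 for Atp5b, -1.03 for Atp5d and -0.93 for Atp5g3.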

How the results depend on the processing

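No called value of a named gene changed sign under an alternative. Median log2 fold changes stayed at 0.52 to 0.83 in CD31 lung, 0.44 to 0.68 in CD31 breast, 0.21 to 0.79 in PDGFRb lung and 0.26 to 0.71 in PDGFRb breast BrM and 0.29 to 0.74 between sorts over the alternatives run. They changed sign in CD31 lung against breast BrM (-0.25 to 0.32), PDGFRb lung against breast BrM (-0.29 to 0.16) and the breast interaction (-0.15 to 0.23). In both sorts the date fit joins lung to breast BrM only through non-tumor libraries, as these kinds share no date. Of the named genes' values, 929 kept their side of the threshold, 158 lost a call and 8 gained one. RLE scaling moved the median of all genes by -0.121 in PDGFRb lung and -0.116 in PDGFRb breast BrM against non-tumor brain, by 0.166 between sorts and by -0.145 in the lung interaction. Upper-quartile scaling moved it by 0.12 between sorts and -0.116 in the lung interaction. Limma-voom moved it by -0.529 in PDGFRb breast and -0.247 in CD31 lung BrM, and no filter by -0.334 and -0.304 in PDGFRb lung and breast BrM. Leaving out the lung libraries low in Pdgfrb leaves 1 library in that arm, which is assumed to vary like the other groups, and 161 of all 21318 genes were then called in PDGFRb lung BrM and 210 of 23279 in the lung interaction. With mouse 54135 relabelled against its markers, 0 of all 18548 genes were called between sorts.

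Leaving out each library in turn gave 46 to 59 genes higher in CD31 lung BrM, 25 to 44 higher and 0 to 1 lower in CD31 breast BrM, 10 to 28 higher and 0 to 2 lower in PDGFRb lung BrM, 4 to 26 higher and 0 to 1 lower in PDGFRb breast BrM, 0 to 1 higher and 0 to 3 lower in PDGFRb lung against breast BrM, 18 to 43 higher and 0 to 3 lower between sorts, 0 to 2 higher in the breast interaction, and 0 to 2 higher and 0 to 10 lower in the lung interaction.

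In CD31 breast BrM 2 genes were lower without a filter and on the deposited log2 or log2(FPKM + 1) values, also at a mean FPKM of at least 1, and 0 with the date, without the libraries high in epithelial markers (an alternative chosen after seeing the data) or with mouse 54135 by its cell type label, which left 15 higher. In CD31 lung BrM 1 was lower on log2(FPKM + 1), with or without that minimum, and 5 were higher with the date. DESeq2 called 5 higher in CD31 lung against breast BrM.

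In PDGFRb breast BrM 8 were higher without a filter, 25 with limma-voom, 9 on log2(FPKM + 1) and 6 on log2(FPKM + 0.1), 6 with mouse 54135 by its cell type label, 5 without the lung mice with 2 numbers and 0 with the date. In that comparison 1 was lower without a filter, by DESeq2, limma-voom, the deposited log2 and the FPKM values, and without the lung mice with 2 numbers. In PDGFRb lung BrM 10 were higher without a filter, 3 without the lung mice with 2 numbers, 0 without the lung libraries low in Pdgfrb and 5 with the date. There 1 was lower by DESeq2 and with the date, 3 by limma-voom, 2 on the deposited log2 values, and 5, 4 and 5 on FPKM with pseudocounts of 1, 0.1 and the minimum.

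In PDGFRb lung against breast BrM 3 were higher by DESeq2, 4 on FPKM with either pseudocount, 3 with the minimum, and 0 under the relabelled mouse, without the mice with 2 numbers, without the libraries low in Pdgfrb and with the date. Lower were 2 by DESeq2 and limma-voom, 1 on the deposited log2 values and with the date, and 5, 3 and 3 on the FPKM values. Between sorts 0 were higher with the relabelled mouse and 19 with the replicate block by mouse, 3 were lower by limma-voom and 0 by RLE, upper-quartile scaling, no filter, DESeq2, the relabelled mouse, without the mice with 2 numbers and with the block. In the breast interaction upper-quartile scaling, DESeq2 and limma-voom gave 1 higher. In the lung interaction 3 were higher by limma-voom and 0 without a filter, with a filter at 1 CPM, with the relabelled mouse, without the mice with 2 numbers, without the libraries low in Pdgfrb and with the block. Lower were 11 by DESeq2, 1 with the relabelled mouse or the block, and 0 without the mice with 2 numbers or the libraries low in Pdgfrb. The causes were not tested.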

Other observations

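Glycolysis genes, which make ATP outside the mitochondria, were read beside the subunits. Of 16, 7 rose and 1 fell in CD31 lung BrM, and 11 rose in CD31 breast BrM. Over all genes tested, 20.4% were higher and 14.5% lower in CD31 lung BrM, and 18.6% and 11.4% in CD31 breast BrM. In the PDGFRb sort 8 rose and 2 fell in lung BrM, and 9 rose in breast BrM. There 9.91% of all genes were higher and 7.58% lower in lung, and 6.3% and 2.69% in breast BrM. Hk2, an inducible hexokinase, rose by 6.03 ± 1.38 in CD31 lung and 6.07 ± 1.38 in CD31 breast BrM, and by 4.22 ± 0.65 and 4.37 ± 0.65 in PDGFRb lung and breast BrM (log2, SE; adjusted p 0.0029, 0.0031, 0.00076 and 0.0014, edgeR). Ldha, a lactate dehydrogenase subunit, rose by 1.81 ± 0.20 in PDGFRb lung and 2.23 ± 0.20 in PDGFRb breast BrM (SE; adjusted p 6.4e-05 and 5.6e-05, edgeR).

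Of 16 genes of the tricarboxylic acid cycle, 4 rose in CD31 lung BrM, and 2 rose and 1 fell in CD31 breast BrM. These counts are near the shares of 20.4% and 18.6% of all genes that were higher. The median log2 fold change of the 16 was -0.04 in lung and -0.06 in breast BrM. In the PDGFRb sort 0 rose and 1 fell in each kind of BrM. Of 15 regulators of mitochondrial biogenesis, only Nrf1, which encodes the factor of the NRF1-type motif, passed in a comparison of BrM with non-tumor brain, at -0.57 ± 0.18 in CD31 breast BrM (SE; adjusted p 0.022, edgeR).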
